A study of Mus musculus with 6 samples.

Results

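The genes described here are the 10 genes Yap1, Wwtr1, Tead1, Tead2, Tead3, Tead4, Lats1, Lats2, Ccn1 and Amotl2, which encode coactivators, DNA-binding factors, kinases and target genes of the YAP and TAZ mechanosensing pathway. They were chosen by gene symbol in the GENCODE M21 annotation, and each matched 1 of the 55536 rows of the deposited count matrix. The RNA came from limb bone perichondrium, the connective tissue sheath of cartilage, taken from mice of age P4 (postnatal day 4). The study sequenced 3 libraries of genotype Fbn1Scx-/- (called mut here, as in the titles) and 3 of genotype WT. Fbn1 encodes fibrillin-1, the main protein of extracellular microfibrils. Scx is scleraxis, a transcription factor gene of tendon and ligament progenitors, and a title of the mut group names ScxCRE. Whether the WT mice carried a floxed allele or Cre, which exons were deleted, the sex of the mice and whether tissue was pooled could not be read from the labels. The libraries are named mut-596, mut-597, mut-795, WT-596, WT-597 and WT-795 after their titles, and 3 values of a genotype are given in that order. No label states whether the libraries are from separate mice, so a p-value here reflects the spread among these 6 libraries, which may be technical.

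YAP (gene Yap1) and TAZ (gene Wwtr1) are transcriptional coactivators that carry no DNA-binding domain and act through the TEAD factors. The LATS kinases of the Hippo pathway phosphorylate both proteins, which keeps them in the cytoplasm, while stiff matrix, spreading and actomyosin tension favour their entry into the nucleus. Their activity is set largely at the level of protein location and phosphorylation, which RNA levels do not measure. Ccn1 and Amotl2 are widely used target genes, and Amotl2 and Lats2 also feed back as inhibitors of YAP.

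Total counts per library lay between 7209217 and 10316017, and the 10 genes held between 2981 and 4333 counts of each library. Fbn1, the check of the labels, had 76, 45 and 69 counts in the mut libraries and 1255, 898 and 458 in the WT libraries. Its log2 fold change was -3.48 (SE 0.29, edgeR quasi-likelihood test with Benjamini-Hochberg adjustment over all genes tested, adjusted p = 1.03e-04), and it was the 1 gene of 15712 tested that passed an adjusted p of 0.05, which is 0.00636% of them. All 10 perichondrium and periosteum markers had counts in every library, with summed levels of 35479 to 37417 CPM (counts per 1000000 counts of the library, scaled by TMM) in mut and 36871 to 38101 CPM in WT. WT-795 stood apart from the other WT libraries. Across the 15712 genes its log2 CPM correlated with WT-596 and WT-597 at Pearson r = 0.948 and 0.929, where every other pair of libraries of 1 genotype lay between 0.955 and 0.969. Without WT-795, 1512 genes (9.62%) passed the adjusted threshold, so results that turn on it are given with and without it. Counts of Xist, the RNA of the inactive X, were 6221 for mut-596, 4024 for mut-597 and 4 or fewer in the remaining 4 libraries. Those 4 held counts of the Y-linked gene Ddx3y, while mut-596 and mut-597 held 0. No WT library had high Xist, so differences tied to sex and to genotype cannot be fully told apart.

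The promoters of the genes that encode the coactivators and the targets are shown because TEAD factors bind the core GGAATG, which reads CATTCC on the other strand, and each of these 4 windows holds it. The sequences are the 250 bases before the RefSeq start site in GRCm38.p6, on the strand of the gene (minus for Ccn1, Yap1 and Wwtr1, plus for Amotl2), with the core in capitals. The windows are chr3:145649986-145650235 for Ccn1, chr9:102717554-102717803 for Amotl2, chr9:8004597-8004846 for Yap1 and chr3:57575911-57576160 for Wwtr1. The Amotl2 window lies inside the annotated gene, which starts at 102716672, so it precedes an internal RefSeq start and not the annotated gene start.
Ccn1: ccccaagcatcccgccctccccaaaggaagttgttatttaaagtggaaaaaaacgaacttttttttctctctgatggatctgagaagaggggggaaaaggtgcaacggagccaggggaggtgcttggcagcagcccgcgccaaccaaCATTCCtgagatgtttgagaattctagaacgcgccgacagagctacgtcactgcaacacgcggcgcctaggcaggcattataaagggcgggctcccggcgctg
Amotl2: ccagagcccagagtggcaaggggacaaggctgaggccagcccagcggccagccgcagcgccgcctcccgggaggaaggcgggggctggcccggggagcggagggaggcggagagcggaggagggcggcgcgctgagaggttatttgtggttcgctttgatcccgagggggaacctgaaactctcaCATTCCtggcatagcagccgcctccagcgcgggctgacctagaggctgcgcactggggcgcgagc
Yap1: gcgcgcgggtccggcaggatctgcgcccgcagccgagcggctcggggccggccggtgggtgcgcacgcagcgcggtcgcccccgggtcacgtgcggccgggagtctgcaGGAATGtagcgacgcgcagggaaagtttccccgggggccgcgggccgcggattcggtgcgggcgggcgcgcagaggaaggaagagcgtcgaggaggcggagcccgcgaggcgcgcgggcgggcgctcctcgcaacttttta
Wwtr1: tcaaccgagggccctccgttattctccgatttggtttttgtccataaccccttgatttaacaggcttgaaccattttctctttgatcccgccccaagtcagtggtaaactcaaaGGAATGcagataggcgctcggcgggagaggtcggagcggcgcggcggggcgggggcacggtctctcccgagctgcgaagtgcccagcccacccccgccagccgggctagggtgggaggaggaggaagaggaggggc
The core began 103 bases before the start site in Ccn1, 65 in Amotl2, 141 in Yap1 and 136 in Wwtr1. In another RefSeq window of Wwtr1, not shown, the same core began 170 bases before the start site. It read CATTCC in Ccn1 and Amotl2 and GGAATG in Yap1 and Wwtr1. RefSeq windows were matched for 8 of the 10 genes, and 5 of these genes (the 4 shown and Tead3) had at least 1 window with the core on either strand. Among all 27025 genes with a window the share was 14.4%, and among all 32851 windows it was 12.6%. A match of letters is a description and not a binding site.

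Wwtr1 was the most abundant of the 10 transcripts per length. Per kilobase of annotated exon, WT levels were 36.1 ± 4.60 CPM per kb for Wwtr1, 14.0 ± 4.86 for Ccn1, 6.84 ± 3.27 for Lats2, 4.57 ± 0.599 for Tead2 and 4.43 ± 0.450 for Lats1 (SD, n = 3). They were 3.34 ± 0.348 CPM per kb for Yap1, 3.12 ± 0.339 for Amotl2, 3.04 ± 1.005 for Tead1, 0.385 ± 0.0587 for Tead3 and 0.378 ± 0.0824 for Tead4 (SD, n = 3). The median of all tested genes in WT was 2.96 CPM per kb, so Wwtr1 lay at the 90.7th percentile, Yap1 at the 53.5th and Tead3 at the 6.03th. In this order the WT ranges of neighbours overlapped except at 3 steps, which were Wwtr1 over Ccn1, Lats1 over Yap1 and Tead1 over Tead3. The order in mut was the same for the 3 highest and the 2 lowest genes, with Wwtr1 at 40.8 ± 1.77 CPM per kb (SD, n = 3). Annotated exon length counts all isoforms, so the per-length level of a gene with long alternative exons, such as Tead1 with 13570 bases, is a low estimate. The level and rank of Lats2 may also be low, because it shares exons with another annotated gene, as described below.

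**Figure D1:**
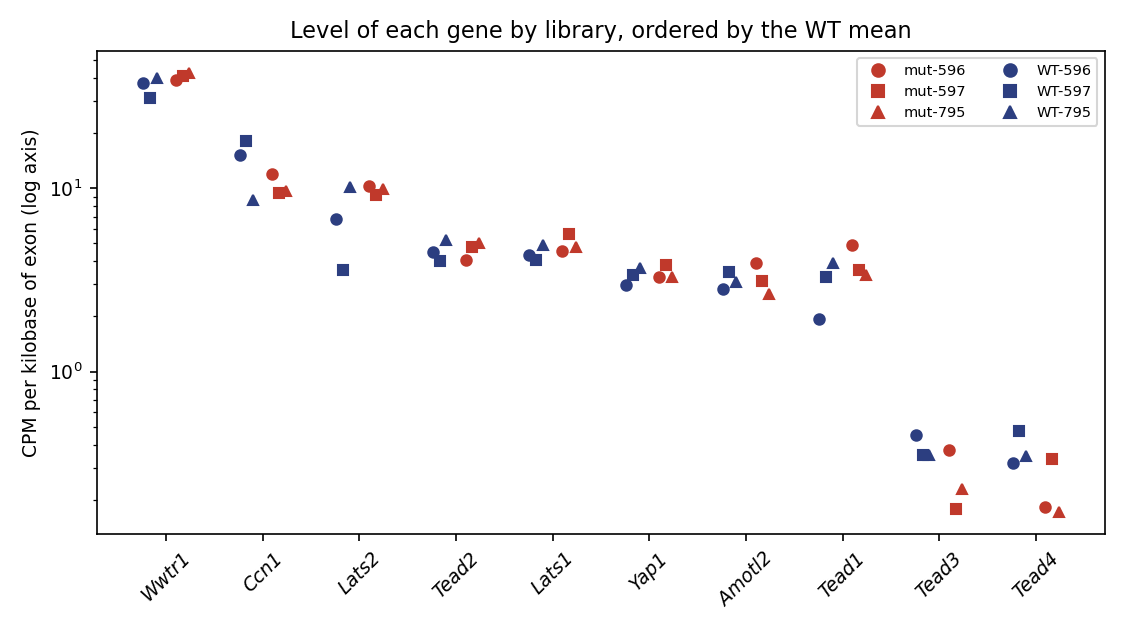
Level of each of the 10 genes in CPM per kilobase of exon (log axis) in the 6 libraries, with WT in blue, mut in red and 1 point per library. Wwtr1 sits highest in every library, Tead3 and Tead4 sit lowest, and mut and WT points overlap for every gene.

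None of the 9 genes tested passed the adjusted threshold between genotypes by edgeR, where 0.00636% of all genes did, and none had an unadjusted p under 0.05, where 10.5% of all genes did. None passed an adjusted p of 0.05 with DESeq2 either, where 0.0296% of all genes did, or with limma-voom, with and without sample weights. DESeq2 gave no adjusted p for Tead3 or Tead4. The same count of 0 was found with no filter (0.845% of all genes called), with a stricter filter (0.0125%), with a correction for GC content (0.00637%), with that and a replicate block (0.0255%), with a covariate for the Xist libraries (0%) and without mut-795 (0.0573%). Tead4 was too low for the filter. The log2 fold changes of mut against WT were above 0 for 7 of the 9 genes and below 0 for Tead3 and Ccn1, with a median of 0.05. That split did not hold in every fit. With the GC correction 4 lay above 0 and 5 below (median -0.04), and the same split was found without WT-596. With the covariate for the Xist libraries 5 lay above 0 and 4 below (median 0.10). Among all 15712 genes, 7997 lay above 0 and the median was 0.01. No gene of the 10 had groups that did not overlap, against 11.9% of all genes tested. None of the 10 genes is in the authors' deposited table, which holds 1643 genes. Of those rows, 1271 carried the fold change of a DESeq2 fit of these counts within 1e-04, and 1270 of these had an unadjusted p under 0.05 in that fit. Of the 10 genes, the smallest unadjusted p in that fit was 0.104, for Lats2.

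**Figure D2:**
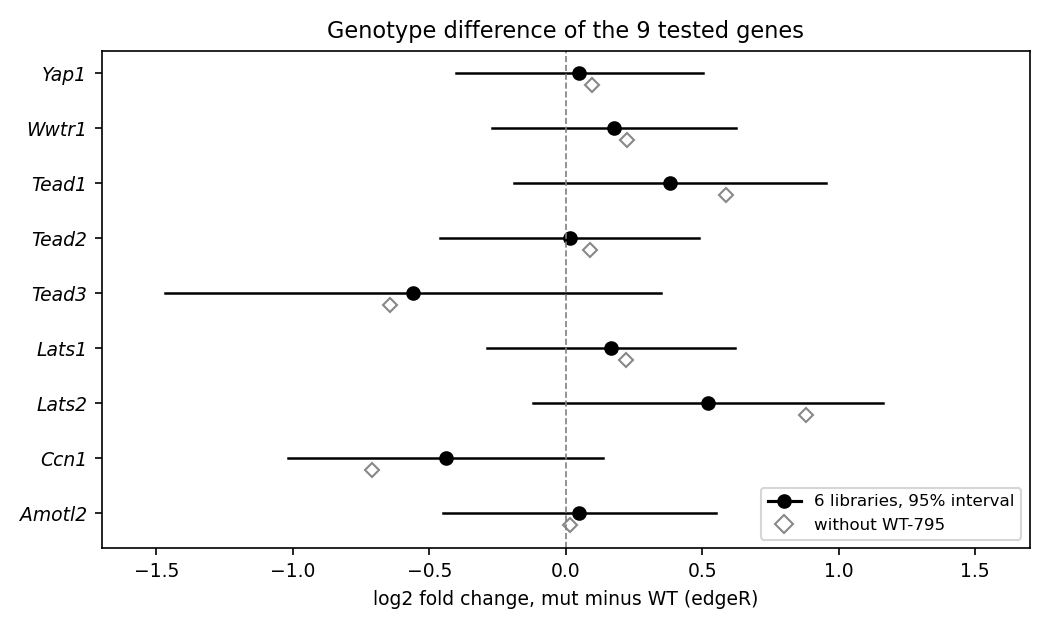
Difference between genotypes on the log2 scale (mut minus WT) for the 9 tested genes, with filled points and 95% intervals from edgeR over 6 libraries and open diamonds for the fit without WT-795. Every interval spans 0, and the diamonds of Lats2, Ccn1 and Tead1 lie further from 0 than the points.

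Neither coactivator gene passed the test between genotypes. Yap1 (ENSMUSG00000053110, chromosome 9, 7931999 to 8004596, minus strand, GRCm38) was at 30.2, 35.4 and 30.4 CPM in mut. Its WT values were 27.5, 31.3 and 33.9 CPM. The 6 values interleave, with means of 32.0 ± 2.92 CPM in mut and 30.9 ± 3.22 CPM in WT (SD, n = 3). The fold of mut over WT was 1.04, with a 95% interval of 0.757 to 1.42 (edgeR adjusted p = 0.927). The interval leaves room for a modest difference in Yap1 RNA in either direction.

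Wwtr1 (ENSMUSG00000027803, chromosome 3, 57455649 to 57575910, minus strand) rested on the most reads, 9516 counts over the 6 libraries. It was at 187, 194 and 204 CPM in mut and at 179, 148 and 190 CPM in WT. The mut libraries were the higher ones except that WT-795 lay above mut-596. The fold was 1.13, with a 95% interval of 0.829 to 1.54 (edgeR adjusted p = 0.711). Per length, Wwtr1 exceeded Yap1 in every library, at 11.8 ± 1.16 times its level in mut and 10.9 ± 1.74 times in WT (SD, n = 3), and an exact two-sided permutation test of that ratio gave p = 0.5. The smallest p that 3 libraries against 3 allow is 0.1. The size of the per-length ratio rests on annotated exon length, 4779 bases for Wwtr1 and 9257 for Yap1. Undivided by length, the WT means were 172 CPM for Wwtr1 and 30.9 CPM for Yap1.

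Among the TEAD factors, which bind DNA and recruit YAP or TAZ, Tead1 and Tead2 made up almost all of the RNA. Of the summed per-length level of the 4 genes in WT, Tead2 took 55.0 ± 6.59%, Tead1 35.7 ± 7.55%, Tead3 4.73 ± 1.40% and Tead4 4.59 ± 1.16% (SD, n = 3). In mut the shares were 51.1 ± 7.57%, 43.4 ± 7.06%, 2.86 ± 0.980% and 2.55 ± 1.05% in the same order (SD, n = 3). Exact two-sided permutation tests of the 4 shares gave p between 0.2 and 0.6 before any adjustment. Undivided by length, Tead1 lay above Tead2, with WT means of 41.2 and 21.9 CPM. The order of Tead1 and Tead2 thus rests on annotated exon length, 13570 bases for Tead1 and 4788 for Tead2.

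Tead1 (ENSMUSG00000055320, chromosome 7, 112679318 to 112906807, plus strand) was at 66.4, 48.9 and 45.5 CPM in mut. Its WT values were 26.3, 44.3 and 53.1 CPM. The highest value was in mut-596 and the lowest in WT-596, and the other 4 libraries lay between 44.3 and 53.1 CPM. The fold was 1.30 (95% interval 0.876 to 1.94, edgeR adjusted p = 0.545). Its log2 fold change of 0.38 became 0.14 without WT-596, 0.20 without mut-596 and 0.59 without WT-795 (edgeR adjusted p = 0.904, 0.882 and 0.138).

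Tead2 (ENSMUSG00000030796, chromosome 7, 45215753 to 45233644, plus strand) lay between 19.2 and 24.9 CPM in all 6 libraries, with a fold of 1.01 (95% interval 0.727 to 1.40, edgeR adjusted p = 0.981). Tead3 (ENSMUSG00000002249, chromosome 17, 28331671 to 28350817, minus strand) had 19, 8 and 15 counts in mut and 32, 25 and 17 in WT. Its fold was 0.678, and the 95% interval ran from 0.361 to 1.27 (edgeR adjusted p = 0.570). Tead4 (ENSMUSG00000030353, chromosome 6, 128224288 to 128300823, minus strand) had 5, 8 and 6 counts in the mut libraries and 12, 18 and 9 in the WT libraries, in the same order. At 0.826 ± 0.325 CPM in mut and 1.36 ± 0.296 CPM in WT (SD, n = 3) the ranges overlapped, since mut-597 lay above WT-596. Fitted without a filter its log2 fold change was -0.76 (SE 0.61, edgeR adjusted p = 0.724). No difference in Tead3 or Tead4 was detected.

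The LATS kinases phosphorylate YAP and TAZ. Lats1 (ENSMUSG00000040021, chromosome 10, 7681214 to 7716460, plus strand) was at 33.0, 41.1 and 34.7 CPM in mut and at 31.6, 29.4 and 35.9 CPM in WT. Its fold was 1.12 (95% interval 0.819 to 1.54, edgeR adjusted p = 0.730). The highest value was in mut-597 and the lowest in WT-597, and the groups overlapped, since WT-795 lay above mut-596 and mut-795.

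Lats2 (ENSMUSG00000021959, chromosome 14, 57689662 to 57758388, minus strand) varied most within WT. It was at 71.7, 63.7 and 69.2 CPM in mut and at 47.5, 25.0 and 70.5 CPM in WT. The mut libraries were close together, at 68.2 ± 4.08 CPM (SD, n = 3), and WT-795 lay among them. WT as a group was at 47.7 ± 22.8 CPM (SD, n = 3). The fold was 1.44 (95% interval 0.921 to 2.24, log2 fold change 0.52, SE 0.30, edgeR adjusted p = 0.491). Without WT-795 Lats2 passed the test (log2 fold change 0.88, edgeR adjusted p = 0.0471), as did 9.62% of all genes, 3.5% higher and 6.12% lower. Without WT-597, the WT library with the lowest value, its log2 fold change was 0.20 (edgeR adjusted p = 0.914).

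Per length, Lats2 exceeded Lats1 2.00 ± 0.335-fold in mut and 1.51 ± 0.587-fold in WT (SD, n = 3), and in WT-597 alone it lay below it, at 0.889 times. An exact two-sided permutation test of this ratio gave p = 0.2. Lats2 shares 2955 exon bases with the annotated gene Gm49361 on the same strand, and Gm49361 had 0 counts in all 6 libraries. No read in the shared exons was thus credited to Gm49361. No source used here says whether the authors' counting gave such reads to Lats2 or dropped them. If they were dropped, the level of Lats2 per length and its ratio to Lats1 are low estimates. The level of Lats2 relative to other genes is therefore uncertain.

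Ccn1 (ENSMUSG00000028195, chromosome 3, 145646976 to 145649981, minus strand), a matricellular protein gene that responds to YAP and TAZ within hours, was the target with the larger difference. It was at 24.2, 18.9 and 19.5 CPM in mut. Its WT values were 30.5, 36.7 and 17.5 CPM. WT-596 and WT-597 lay above all mut libraries, while WT-795 held the lowest value of the 6. The fold was 0.737 (95% interval 0.494 to 1.10, log2 fold change -0.44, SE 0.27, edgeR adjusted p = 0.507). Without WT-795 the log2 fold change was -0.71 (edgeR adjusted p = 0.0537), and without WT-597 it was -0.23 (edgeR adjusted p = 0.917).

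Amotl2 (ENSMUSG00000032531, chromosome 9, 102716672 to 102733418, plus strand) encodes an angiomotin family scaffold that binds YAP at cell junctions. It was at 24.7, 19.6 and 16.7 CPM in mut and at 17.7, 21.9 and 19.3 CPM in WT. The mut values enclose the WT values, and the fold was 1.04 (95% interval 0.733 to 1.46, edgeR adjusted p = 0.933). The 2 target genes thus lay on opposite sides of 0 without either passing the test, and the difference between them was not tested.

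Without WT-795 the groups did not overlap for 5 of the 10 genes, which were Wwtr1, Tead1, Lats1, Lats2 and Ccn1. The same held for 48.3% of all genes tested, so this count is near the background of the series. Ccn1 was the 1 of these 5 genes that was lower in mut.

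**Figure D3:**
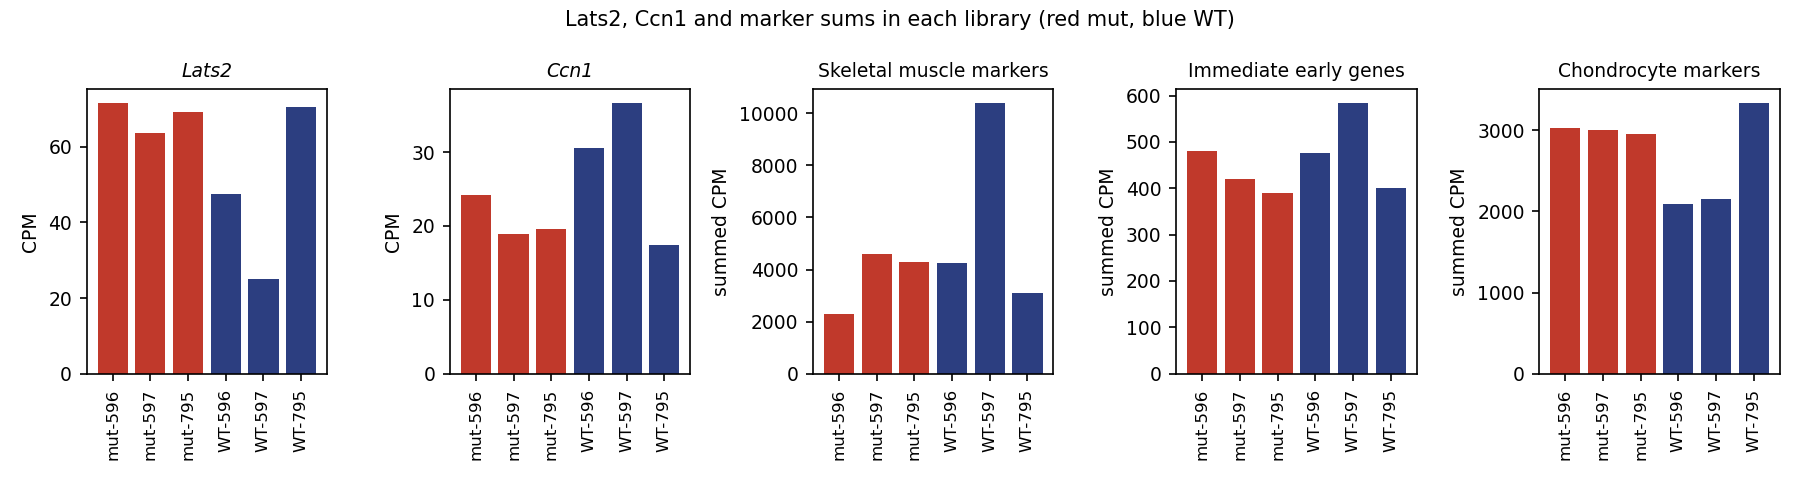
Lats2 and Ccn1 (CPM) and the summed CPM of skeletal muscle markers, immediate early genes and chondrocyte markers in each library, with bars from 0, mut in red and WT in blue. WT-597 has the lowest Lats2, the highest Ccn1 and the highest muscle sum, while WT-795 lies within the mut range in Lats2, just below it in Ccn1 and above it in chondrocyte markers.

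Markers of other tissues also differed between libraries. The 12 skeletal muscle markers, all with counts in every library, summed to 10413 CPM in WT-597 and to between 2282 and 4607 CPM in the other 5 libraries. All 12 lay below 0 in the genotype comparison and none passed the test. The 10 chondrocyte markers summed to 2953 to 3027 CPM in mut, to 2088 and 2157 CPM in WT-596 and WT-597 and to 3341 CPM in WT-795. The 6 erythroid markers summed to 4634, 9193 and 34965 CPM in mut and to 11261, 34058 and 10360 CPM in WT. The 21 immediate early genes, transcription factor and signalling genes that respond fast to handling of tissue and of which Ccn1 is also known as one, summed to 389 to 480 CPM in mut and 401 to 585 CPM in WT, highest in WT-597. With a covariate for the muscle markers the log2 fold changes were 0.25 for Lats2, -0.22 for Ccn1 and 0.27 for Tead1 (edgeR adjusted p = 0.953 for each). The part of muscle, cartilage, blood and handling in these values was not tested. In whole tissue, fewer cells of a type and less RNA per cell cannot be told apart.

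Of the remaining genes of the Hippo pathway none passed the test, and more lay above 0 than below. Of 27 listed kinases, adaptors and upstream regulators, 26 were tested, 17 lay above 0 and 9 below, and the median log2 fold change was 0.18. That direction did not hold in every fit, since 11 lay above 0 and 15 below with the covariate for the Xist libraries (median -0.06), and 13 lay on each side with the covariate for muscle markers (median 0.02). An unadjusted p under 0.05 was reached by 3 of them, against 10.5% of all genes. Taok1, a kinase upstream of the Hippo kinases, was at 136 ± 23.4 CPM in mut and 86.0 ± 33.0 CPM in WT (SD, n = 3), and its log2 fold change was 0.66 (SE 0.27). The LATS cofactor gene Mob1b was at 0.63 (SE 0.27), the angiomotin gene Amot at 0.47 (SE 0.22), and Dchs1, a protocadherin ligand of FAT4, at -0.61 (SE 0.27). Their edgeR adjusted p lay between 0.459 and 0.475. Without WT-795, 2 of the 26 passed, Mob1b and Taok1, both higher (edgeR adjusted p = 0.0389 and 0.0202), where 9.62% of all genes did. Without WT-597 they were at 0.45 and 0.45 (edgeR adjusted p = 0.908 for each), and with the GC correction at 0.20 and 0.35.

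The VGLL proteins compete with YAP for TEAD. Of 4 listed, Vgll1 had 0 counts in every library. Vgll4 was at 55.8 ± 9.12 CPM in mut and 49.1 ± 4.02 CPM in WT (SD, n = 3), and its log2 fold change was 0.18. Vgll3 was at 0.55 (SE 0.34) and Vgll2, which is expressed in skeletal muscle, at -0.93 (SE 0.49), with edgeR adjusted p of 0.505 and 0.480. Without WT-597 Vgll2 was at -0.08, and with the covariate for muscle markers at 0.03.

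The listed YAP and TAZ target genes showed no common direction. Besides Ccn1 and Amotl2, 17 of 19 targets were tested, 9 lay above 0 and 8 below, the median was 0.05, and none passed the test, also without WT-795. Ccn2, the sister gene of Ccn1 in the CCN family and the most used target, was at 45.5 ± 5.65 CPM in mut and 58.6 ± 13.5 CPM in WT (SD, n = 3), with its log2 fold change at -0.37 (SE 0.23, edgeR adjusted p = 0.512). Fjx1, a target that encodes a secreted modulator of FAT signalling, was at 4.78 ± 0.330 CPM in mut and 7.83 ± 1.02 CPM in WT (SD, n = 3). Its groups did not overlap, which held for 2 of the 17 targets and for 11.9% of all genes tested. The log2 fold change of Fjx1 was -0.72 (SE 0.28, edgeR adjusted p = 0.459). Rbms3, an RNA-binding protein gene, was at 0.54 (SE 0.25). Ankrd1, a target that muscle also expresses, was at -0.86 (SE 0.49), and at 0.0075 without WT-597. In the authors' deposited table, Fjx1 was listed at -0.73 and Rbms3 at 0.54.

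Genes of the serum response factor pathway, which answers to actin polymerisation in parallel with YAP and TAZ, were mostly below 0. Of 17 listed genes, all tested, 12 lay below 0 and 5 above, with a median of -0.21, and none passed the test. The median was -0.05 with the covariate for muscle markers and -0.10 with the GC correction, which left 10 below 0 and 7 above. Tpm2 passed when no filter was used (edgeR adjusted p = 1.13e-04), where 0.845% of all genes did. Srf itself, the DNA-binding factor, was at 2.14 ± 0.942 CPM in mut and 5.41 ± 1.30 CPM in WT (SD, n = 3). It was the 1 gene of the 17 whose groups did not overlap, where 11.9% of all genes tested did not. The log2 fold change of Srf was -1.33 (SE 0.40, edgeR adjusted p = 0.459). The tropomyosin gene Tpm2 was at -1.35 (SE 0.48), the smooth muscle actin gene Acta2 at -0.84 (SE 0.33) and Zyx, a focal adhesion protein gene, at -0.68 (SE 0.27). Without WT-795, 5 of the 17 passed by edgeR, all lower, which were Srf, Acta2, Myl9, Tpm2 and Zyx, where 9.62% of all genes passed and 6.12% were lower. Without WT-597, Tpm2 was at -0.44, Acta2 at -0.59, Zyx at -0.44 and Srf at -1.19 (edgeR adjusted p = 0.908 for each). Tpm2 is also a muscle gene, and it was at 459 ± 390 CPM in WT (SD, n = 3). The authors' deposited table lists Srf at -1.35, Acta2 at -0.85, Myl9 at -0.69 and Zyx at -0.68.

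The inputs of mechanosensing, which were RhoA signalling, focal adhesion and stretch-activated channel genes, lay on both sides of 0. Of 16 genes tested, 9 lay above 0 and 7 below, with a median of 0.04 and none past the test. Rock1 and Rock2, the kinases that activate myosin downstream of RhoA, were at 0.60 (SE 0.27) and 0.37 (SE 0.25). The integrin gene Itgav was at 0.37 (SE 0.26) and the kinase gene Src at -0.45 (SE 0.28). Their edgeR adjusted p lay between 0.466 and 0.548. Without WT-795, Rock1 alone of the 16 passed (log2 fold change 0.93, edgeR adjusted p = 0.0238), where 9.62% of all genes did. With the GC correction Rock1 was at 0.27, and without WT-597 at 0.42 (edgeR adjusted p = 0.774 and 0.908).

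Immediate early genes lay below 0 in 15 of 19 tested, with a median of -0.31 and none past the test. Jund was at 30.0 ± 7.46 CPM in mut and 85.7 ± 53.3 CPM in WT (SD, n = 3), and its log2 fold change was -1.52 (SE 0.38). Atf3, Egr1 and Ier3 were at -1.69, -0.94 and -0.74. Each of these 4 had an edgeR adjusted p of 0.459. Without WT-795, 5 of the 19 passed, all lower, which were Jund, Egr1, Atf3, Ier2 and Ier3, where 9.62% of all genes passed and 6.12% were lower. Without WT-597, Jund was at -0.97, Egr1 at -0.48, Atf3 at -1.73 and Ier3 at -0.59 (edgeR adjusted p = 0.908 for each). Jund also passed when no filter was used (edgeR adjusted p = 5.68e-06), where 0.845% of all genes did. With a correction for transcript GC content the median of the list was -0.06, with 11 of 19 below 0. Of the 103 genes in the lists beside the 10 genes, 16 are among the 1643 genes of the authors' deposited table. Besides those given above, they include Taok1, Mob1b, Dchs1, Rock1, Jund, Egr1, Atf3, Ier2 and Ier3. For scale, an unadjusted edgeR p under 0.05 was reached by 1648 of all 15712 genes tested, which is 10.5%. Most rows of the deposited table matched a fit of these same counts, so the overlap is not separate evidence.

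**Figure D4:**
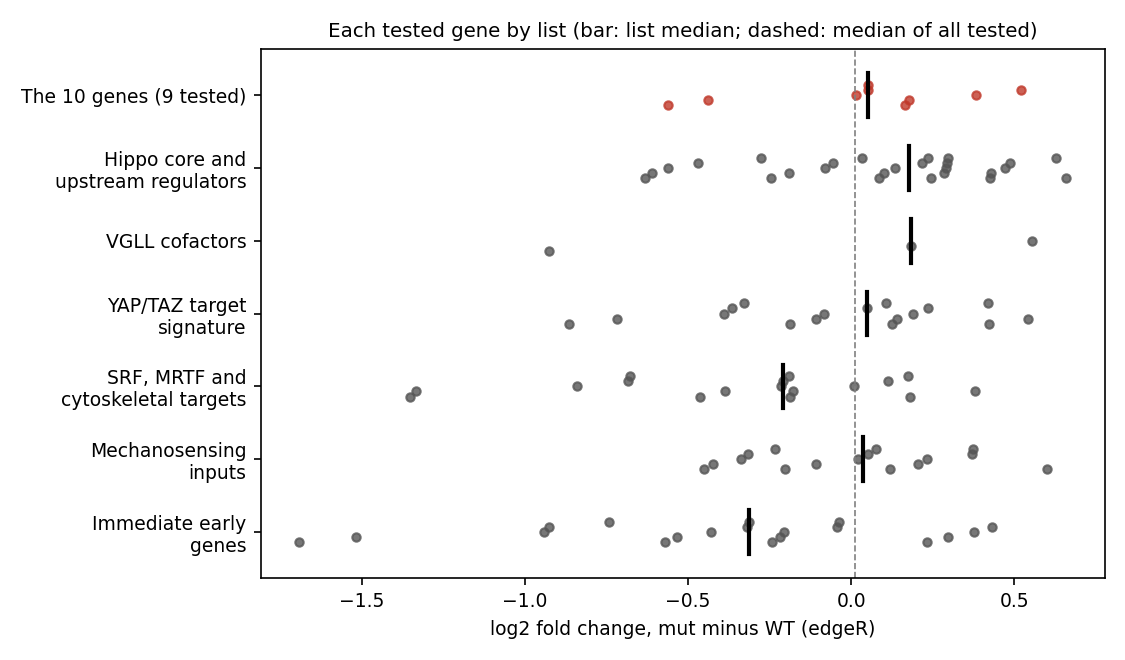
Log2 fold change (mut minus WT) of each tested gene in 7 lists, with the list median as a bar and the median of all 15712 tested genes as a dashed line. The 10 genes, the Hippo regulators, the YAP/TAZ targets and the mechanosensing inputs scatter around 0, and the medians of the SRF list and the immediate early list lie at -0.21 and -0.31.

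Over the 6 libraries, the genes whose log2 CPM followed a member most closely were picked from 7483 genes whose log2 CPM averaged 3 or more, leaving out unnamed, mitochondrial, ribosomal and pseudogene symbols. For Yap1 these were Agpat5, Ing2 and Adpgk (Pearson r = 0.975, 0.972 and 0.969). For Wwtr1 they were St8sia4, Fundc1 and Atp6ap2 (r = 0.994, 0.994 and 0.994). For Ccn1 they were Denr, Srsf4 and Eln, the gene of elastin (r = 0.991, 0.987 and 0.982). With 6 points that share library depth and composition, high values of r are common among so many genes, and they are given as a description.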

How the data were processed

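Total RNA was isolated with the Qiagen RNeasy micro kit and made into Smart-seqV4 and NexteraXT cDNA libraries, per the labels' protocols. The authors deposited whole-number counts per Ensembl gene, not normalized, and a table of log2 fold changes of mut against WT. The log base of the authors' table was judged from the values. The build GRCm38.p6 and the tool DESeq2 are named per the submitters' processing notes. Versions of aligner and counter, strand use and the handling of multiply mapped reads are not given in these sources. Yap1 shares 116 exon bases with the opposite-strand gene Gm20416 and Tead2 shares 13 with Cd37, and without strand such reads cannot be told apart.

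Counts were tested with edgeR 4.0.16 (glmQLFit and glmQLFTest, two-sided) in R 4.3.3, with TMM scaling, the filterByExpr filter (15712 genes) and Benjamini-Hochberg adjustment over all genes tested at a threshold of 0.05. Intervals of fold changes are 95% intervals from the standard error and the fit's degrees of freedom. CPM is scaled by TMM, and log2 CPM used a prior count of 2. Permutation tests were exact. The common biological coefficient of variation was 0.249. The fits were tested on simulated data. Alternatives used RLE and upper-quartile scaling, other filters, DESeq2 1.42.0, limma 3.58.1 (voom), a replicate block, a GC correction (loess of log2 CPM on GC of the longest transcript), covariates for Xist and muscle markers, and leaving out each library. Copies were sought with transcripts of other genes of at least 95% identity over at least 100 bases, which found Gm49361 for Lats2 and short stretches for Yap1.

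The members and gene lists were chosen with earlier results of these data known. All 10 members and Fbn1 are named, and from each list up to 4 genes with the smallest unadjusted p, while Myl9 and Ier2 are named because they passed without WT-795, a choice made after their values were seen. No molecular identifiers were counted, so reads are not independent molecules.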

Additional observations from a re-analysis of the deposited data

How the results depend on the processing

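The count of the 10 genes past the adjusted threshold was 0 in all 12 alternatives that kept every library and ranged from 0 to 1 when a library was left out, the 1 being Lats2 without WT-795. Over all genes the count of 1 became 270 with no filter, 4 with DESeq2, 4 with the GC correction and the replicate block together and 0 with the covariate for Xist libraries, under which Fbn1 was at -3.65 (edgeR adjusted p = 0.104). It ranged from 1 to 1512 when a library was left out, with 9 without mut-795 and 1512 without WT-795. With the replicate block the count stayed at 1 over all genes and 0 over the 10. Deviations from the genotype mean correlated between mut-596 and WT-596 at r = -0.177 and between mut-597 and WT-597 at 0.244. Between mut-795 and WT-795 r was -0.201. Of the mut libraries, mut-597 alone correlated best with its own number. With 3 libraries per genotype, each centred on their mean, these values cannot decide whether the numbers mark pairs. The labels do not say what the numbers mean, so the block was used as an alternative only.

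Of 586 log2 fold changes of named genes under alternatives, 546 kept direction and call, 25 changed sign, 14 newly passed the threshold and 1 (Fbn1, above) no longer did. Of the 14, 12 were without WT-795 and 2, Tpm2 and Jund, with no filter, and the cause was not tested. Yap1 was at -0.016 with the stricter filter, -0.11 with the GC correction, -0.12 with that and the replicate block and -0.022 with the Xist covariate. Wwtr1 was at -0.043 and -0.042, and Lats1 at -0.089 and -0.097, with the GC correction alone and with the replicate block. Tead2 was at -0.021 with upper-quartile scaling, -0.0044 with no filter, -0.053 with the stricter filter and -0.025 with the muscle covariate. Amotl2 was at -0.018 with the stricter filter and -0.23 with the Xist covariate. With the GC correction alone and with the replicate block, Tead2 was at 0.34 and 0.37 and Amotl2 at 0.38 and 0.37. These were their highest values in any fit (edgeR adjusted p between 0.759 and 0.928). Vgll2 was at 0.028 with the muscle covariate and Vgll4 at -0.075 with the Xist covariate. With a library left out, Yap1 ranged from -0.029 to 0.097, Tead2 from -0.085 to 0.098, Amotl2 from -0.11 to 0.17 and Ankrd1 from -1.27 to 0.0075. Lats2 stayed above 0 and Ccn1 below 0 in all alternatives, between 0.20 and 0.88 and between -0.71 and -0.20. Tead1 also stayed above 0, between 0.14 and 0.63. Tead3 stayed below 0 wherever it was tested, between -0.90 and -0.16. Tead3 and Tead4 had the fewest counts of the 10 genes, 116 and 58 over all libraries.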
